A study of Mus musculus with 75 samples.

Results

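The late-G1 binding sites of CTCF were set against those of the cohesin subunit Rad21 in G1E-ER4 cells, by comparing the deposited CTCF and Rad21 peak lists at an overlap of at least 1 bp. The CTCF list holds 33499 peaks and the Rad21 list 18958, together 52457 of the 246850 peaks in the 12 CTCF and Rad21 lists of the series. The series followed chromatin from mitosis into G1 in 75 samples; late G1 had 2 CTCF ChIP-seq, 2 Rad21 ChIP-seq and 2 Hi-C samples. G1E-ER4 is a mouse proerythroblast line of strain 129 that descends from GATA1-null G1E cells, and it was used here uninduced, so without active GATA1. All cells of these groups had been held with 200 ng/ml nocodazole for 7 to 8.5 h, released for 240 min and flow sorted. For the stages compared further below, nocodazole was the same. Release lasted 0 min for pro-metaphase, 25 min for ana/telophase, 60 min for early G1 and 120 min for mid G1. Asynchronous cells have no nocodazole or release time given. Each list pools its samples, so no value has an error between replicates, and read depth is unknown. All values come from 1 cell line, and its identity could not be checked by marker genes in lists of binding sites and contacts.

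CTCF is a zinc-finger protein that binds a directional DNA motif. Cohesin is a ring-shaped complex, and Rad21 is the kleisin subunit that closes the ring. In the loop extrusion model, cohesin reels in chromatin until it meets CTCF bound in the blocking orientation, and the paired CTCF sites at the base of a loop usually point towards each other. Cohesin leaves most of the chromosome arms during mitosis and is loaded again as cells enter G1.

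Nearly every Rad21 peak lay on a CTCF peak, while many CTCF peaks had no called Rad21 peak. Of the 18958 Rad21 peaks, 18017 overlapped CTCF, which is 95.0% with an exact 95% binomial interval of 94.7 to 95.3%. Of the 33499 CTCF peaks, 15503 had no Rad21 peak and 17996 had one, a share with Rad21 of 53.7% (interval 53.2 to 54.3%). Intervals here and hereafter cover counting error only, because peaks of 1 pooled list are not replicates. Pairing was close to one peak for one peak. There were 18029 overlapping pairs: 17963 CTCF peaks met 1 Rad21 peak, 33 met 2, and 12 Rad21 peaks spanned 2 CTCF peaks. Positions are in build mm9 and counted from 1.

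The CTCF peaks without Rad21 were the weaker and narrower ones. Their fold enrichment, the deposited ratio of ChIP signal over background at the summit, had a median of 11.7 with quartiles of 8.89 and 17.5. Peaks with Rad21 had a median of 24.8 with quartiles of 17.4 and 32.9. The quartile ranges of both classes met at about the same fold, so the classes overlapped. Median width was 237 bp without Rad21 and 320 bp with it. Spacing did not follow this order: the next CTCF summit was a median of 10.9 kb away for peaks without Rad21 and 10.7 kb away for peaks with it. An enrichment averages over many cells, so a site bound in fewer cells and a site bound for less time cannot be told apart. A missing Rad21 call means no call at this depth, not that Rad21 was absent.

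The share of CTCF peaks with Rad21 climbed without a break over the deciles of CTCF fold enrichment, which split the list into 10 classes of equal size. From the weakest to the strongest decile it was 13.8%, 18.9%, 26.1%, 36.9%, 49.7%, 62.2%, 71.5%, 79.4%, 86.9% and 91.8%. The weakest decile ran from 3.28-fold to 8.25-fold and the strongest from 36.2-fold to 71.1-fold. No step stood out as a threshold, and the even split between peaks with and without Rad21 fell near the middle of the list, in the decile from 14.9-fold to 18.1-fold. Chromosomes followed the same course: in the weakest decile the share ranged from 9.27% to 22.5% over 20 chromosomes, and in the strongest from 85.2% to 97.0% over the 19 with at least 20 peaks there. Read from the other side, CTCF was found at 78.6% of the weakest decile of Rad21 peaks and at 87.0%, 92.3%, 95.8% and 97.6% of the next 4 deciles. In the stronger deciles that share was never below 99.4%, and 1 of the 1895 strongest Rad21 peaks had no CTCF peak.

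**Figure D1:**
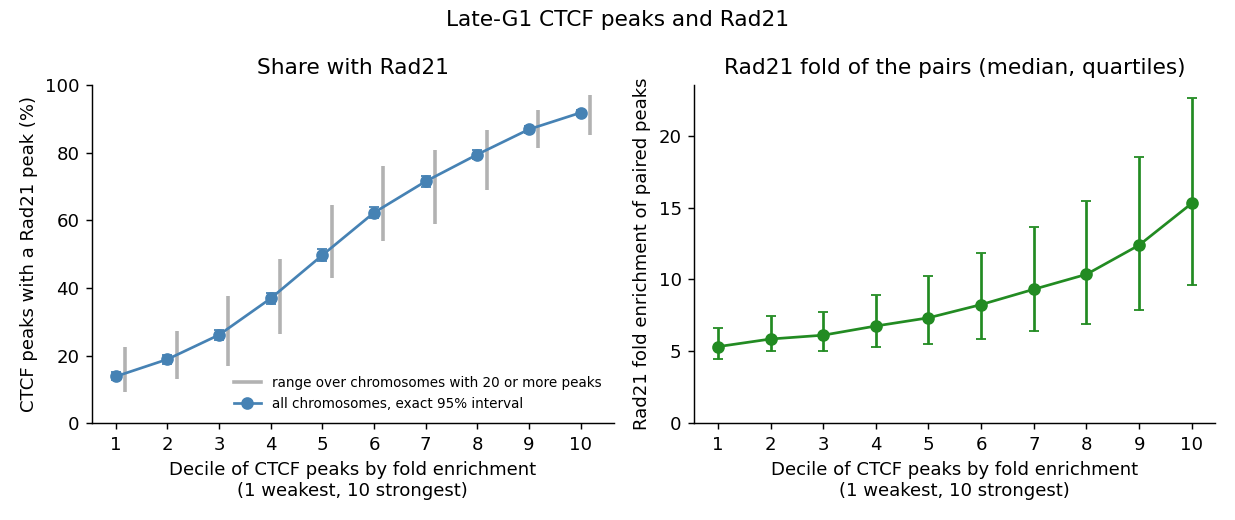
Left, the share of late-G1 CTCF peaks with a Rad21 peak (%) by decile of CTCF fold enrichment, with exact 95% intervals and, in grey, the range over chromosomes; right, the median fold enrichment of the paired Rad21 peaks with quartiles. The share is 13.8% in the weakest decile and 91.8% in the strongest, and the Rad21 median is 5.32-fold and 15.3-fold.

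Where both proteins were called, stronger CTCF went with stronger Rad21, but loosely. Called pairs are 13.8% of the weakest CTCF decile and 91.8% of the strongest, so sites without a Rad21 call are left out mostly where CTCF is weak. What this and measurement noise do to the correlation, and to the Rad21 medians by decile, was not tested. The Spearman rank correlation of fold enrichment over the 17996 pairs was 0.49. Pearson correlation of the log2 values was 0.50, and ranks of −log10 q gave 0.50. These are descriptions over sites that share 1 pooled list and 1 depth per protein, so no p-value is given. The series has 1 input sample of late G1, and the part of a background shared by both proteins was not tested. On single chromosomes the rank correlation ran between 0.40 on chromosome X (456 pairs) and 0.55 on chromosome 11 (1372 pairs), with an SD of 0.035 over the 20 chromosomes. Peak widths correlated too, at 0.41.

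The relation was a drift of the whole distribution and not a tight line. The median Rad21 fold of the pairs over the deciles of CTCF, weakest to strongest, was 5.32, 5.86, 6.12, 6.76, 7.33, 8.25, 9.32, 10.4, 12.4 and 15.3. In the strongest decile the quartiles of Rad21 were 9.58-fold and 22.6-fold, and the lower one was below the median of the decile that begins at 25.4-fold CTCF. Inside a decile the rank correlation was between 0.0256 and 0.213, and it was highest in the weakest decile. A decile spans a narrow range of CTCF fold, which by itself lowers a correlation, so these values do not measure the looseness. A strong CTCF peak could carry strong or weak Rad21, whereas a weak CTCF peak seldom carried strong Rad21. When pairs were ranked by each protein in 20 equal steps, no pair of the lowest CTCF step stood in the highest Rad21 step.

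**Figure D2:**
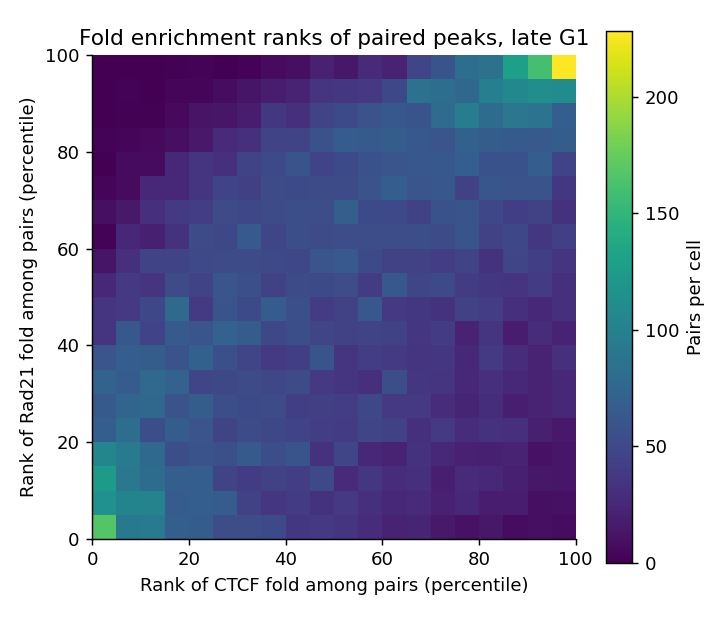
Number of late-G1 pairs in each cell of a grid of 20 by 20 ranks, with the percentile of CTCF fold enrichment across and that of Rad21 fold enrichment upwards, for 17996 pairs. Pairs fill the area on both sides of the diagonal (Spearman 0.49) and crowd at both ends, and the corner of weak CTCF with strong Rad21 is empty.

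The strongest sites, picked by these same folds, are given as examples and add no support to the correlation. The highest CTCF fold in the list was 71.1, at chr5:120552752-120553229, where Rad21 was 16.0-fold. The next in rank, at chr5:130230636-130231120, had CTCF at 70.5-fold but Rad21 at only 4.77-fold, the 10.0th percentile of the Rad21 list. Both sites were in all 5 other CTCF lists and at 1 loop anchor each. The next 3 pairs tied at 69.8-fold for CTCF, and their Rad21 folds were 14.8 on chromosome 2, 10.1 on chromosome 4 and 19.9 on chromosome 8. Seen from Rad21, the highest fold was 48.9 at chr1:69288265-69288666, where CTCF was 40.8-fold. The Rad21 peaks next in rank, 47.6-fold at chr19:44657100-44657597 and 47.4-fold at chr2:39228572-39229047, sat on CTCF peaks of 61.6-fold and 65.1-fold. All 3 of these strongest Rad21 sites carried Rad21 in each of the 5 other Rad21 lists, pro-metaphase included, and each was an anchor of 2 or 3 loops.

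The pairs with the widest gaps in rank were picked for that gap, so they show its extremes only. The widest gap in favour of CTCF was at chr19:6141058-6141779, with CTCF at 46.7-fold and Rad21 at 2.58-fold, in a Rad21 list that begins at 1.56-fold. CTCF minus Rad21 summit was -348 bp there, and no other list had Rad21 at the site. The next pair, at chr15:89026741-89027245, had CTCF at 49.2-fold and Rad21 at 3.61-fold, again with no Rad21 in another list. The third, at chr1:193399577-193400237, had 46.9-fold and 3.76-fold and was still an anchor of 3 loops and of a stripe. The gaps in favour of Rad21 lay at chrX:36162533-36162753 (CTCF 7.80-fold, Rad21 17.8-fold), chr9:21161529-21161704 (9.84-fold and 25.1-fold) and chr6:58553713-58553949 (6.49-fold and 14.1-fold). In the pair on chromosome 9 the CTCF summit minus the Rad21 summit was -314 bp, and the peaks met at their edges only.

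The summits of the 2 proteins lay close together. The median distance was 26 bp (interval 25 to 26 bp), with quartiles of 13 and 39 bp. Of the pairs, 19.9% lay within 10 bp, 87.3% within 50 bp and 99.2% within 100 bp, and 182 pairs had both summits on the same base. The largest distance was 748 bp. The median distance depended little on strength, with 29 bp in the weakest decile of CTCF and 25 bp in the strongest. The spread was narrower at strong CTCF: the 90th percentile was 66.8 and 49 bp, and 77.5% and 91.2% of pairs lay within 50 bp. Pairs over 100 bp numbered 145. In 24 of them 1 peak overlapped 2 of the other list, and their median Rad21 fold was 5.86, against 9.23 in the other pairs. Without regard to direction no side was preferred: the signed median, CTCF minus Rad21, was 0 bp, with the CTCF summit at the higher position in 8994 pairs and at the lower in 8820.

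Sorted by the side of the loop, the same summits fell on opposite sides of each other. A loop has an upstream anchor, at the lower position, and a downstream anchor. At the 5091 pairs that lay in upstream anchors only, CTCF minus Rad21 had a median of -21 bp. At the 5106 pairs in downstream anchors only, it was 22 bp (interval 21 to 22 bp). In both cases the CTCF summit was on the outer side and the Rad21 summit towards the inside of the loop. The CTCF summit was the outer one in 76.8% of upstream pairs (75.6 to 77.9%) and 77.6% of downstream pairs (76.4 to 78.7%). The median pointed outward on 20 of 20 chromosomes for either side, between 17 and 25 bp upstream and between 19 and 25 bp downstream.

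Pairs with no single side could not be sorted this way. Without a direction, shifts to either side cancel, so a median near 0 does not show that a shift is absent. The 5935 pairs at no loop anchor had a median of 0 bp (-1 to 1 bp), with quartiles of -25 and 26 bp. The CTCF summit was the higher one in 49.7% of them. The 1864 pairs that served loops in both directions had a median of 2 bp (-1 to 4 bp). Where the pair was the only co-bound one in its anchor, so that the loop could be given to 1 site, the outward median was 23 bp at both sides, with 81.9% of 2728 upstream and 81.5% of 2708 downstream pairs outward. Stripes, the lines in a contact map that run from 1 anchor over a whole stretch, had the shift as well. The CTCF summit was outward by 23 bp at the 1147 pairs in anchors of horizontal stripes only, which run downstream, and by 24 bp at the 1137 pairs in anchors of vertical stripes only, which run upstream.

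**Figure D3:**
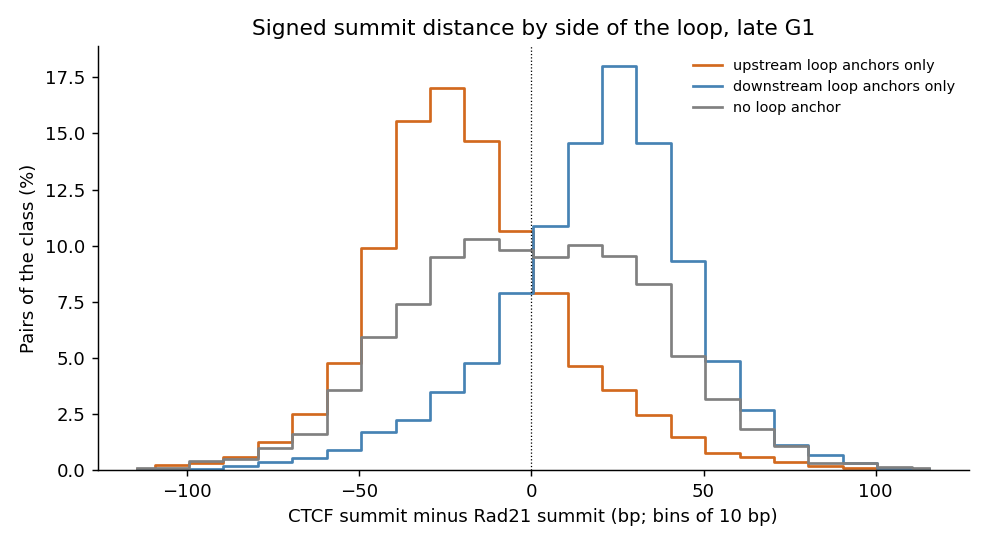
Distribution of the signed distance from the Rad21 to the CTCF summit (bp, bins of 10 bp) as a share of the pairs in each class (%), for pairs at upstream loop anchors only (n = 5091), downstream loop anchors only (n = 5106) and no loop anchor (n = 5935). The upstream curve peaks below 0 and the downstream curve above 0 (medians -21 and 22 bp), and the curve of pairs at no loop anchor is centred on 0.

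The outward shift varied over a wider range with the strength of Rad21 than with that of CTCF. Over the quintiles (5 equal classes) of pairs by Rad21 fold, weakest to strongest, the outward median of pairs in anchors of 1 direction was 12, 15, 20, 23 and 26 bp. The share with CTCF outward over the same quintiles was 61.7%, 66.6%, 75.7%, 84.8% and 89.3%. Over the quintiles by CTCF fold the medians were 20, 20, 21, 22 and 22 bp and the shares ran between 70.9% and 80.6%. The intervals of the median in the weakest and the strongest Rad21 quintile, 9 to 14 bp and 25 to 26 bp, did not touch, and those of the CTCF quintiles, 18 to 22 bp and 21 to 23 bp, did. The outward share also grew with CTCF: its intervals in the weakest and the strongest CTCF quintile, 68.6 to 73.1% and 78.4 to 81.7%, lay apart. The contact features are given in bins of 10 kb, so Hi-C set the side of the loop and the ChIP-seq summits the distance of each pair. A pair given the wrong side lowers both the outward median and the outward share. Over these quintiles, a smaller shift and more pairs on the wrong side cannot be told apart.

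CTCF peaks without Rad21 were found less often at loop and stripe anchors than those with it. Of all late-G1 CTCF peaks, 54.7% overlapped an anchor of one of the 11340 loops: 40.4% of those without Rad21 (39.7 to 41.2%) and 67.0% of those with it (66.3 to 67.7%). Anchors of the 1745 stripes held 8.89% of CTCF peaks, 4.28% of those without and 12.9% of those with Rad21. A domain boundary lay within 20 kb of 31.2% of CTCF summits, 27.6% without and 34.3% with Rad21. All 3 shares were lower without Rad21 on 20 of 20 chromosomes. Anchors are broad, with a median width of 20 kb, so a CTCF peak can share an anchor with others.

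Because peaks without Rad21 were also the weaker CTCF peaks, the shares were compared inside each decile of CTCF fold. Loop shares, averaged over the deciles, were 42.7% without Rad21 and 62.1% with it, and the intervals lay apart in 10 of 10 deciles. Stripe shares were 4.43% and 10.9%, with intervals apart in 9 of 10 deciles. Boundary shares were 30.2% and 32.2%, with intervals apart in 1 of 10 deciles. At like CTCF strength, loop and stripe shares thus differed by whether Rad21 was called, and boundary shares hardly did. Other traits, such as nearby CTCF peaks or co-bound peaks in the same anchor, were not matched here. CTCF strength without Rad21 went with little gain at stripes: 4.12% in the weakest decile and 5.45% in the strongest. With Rad21 the same deciles had 6.48% and 19.1%.

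**Figure D4:**
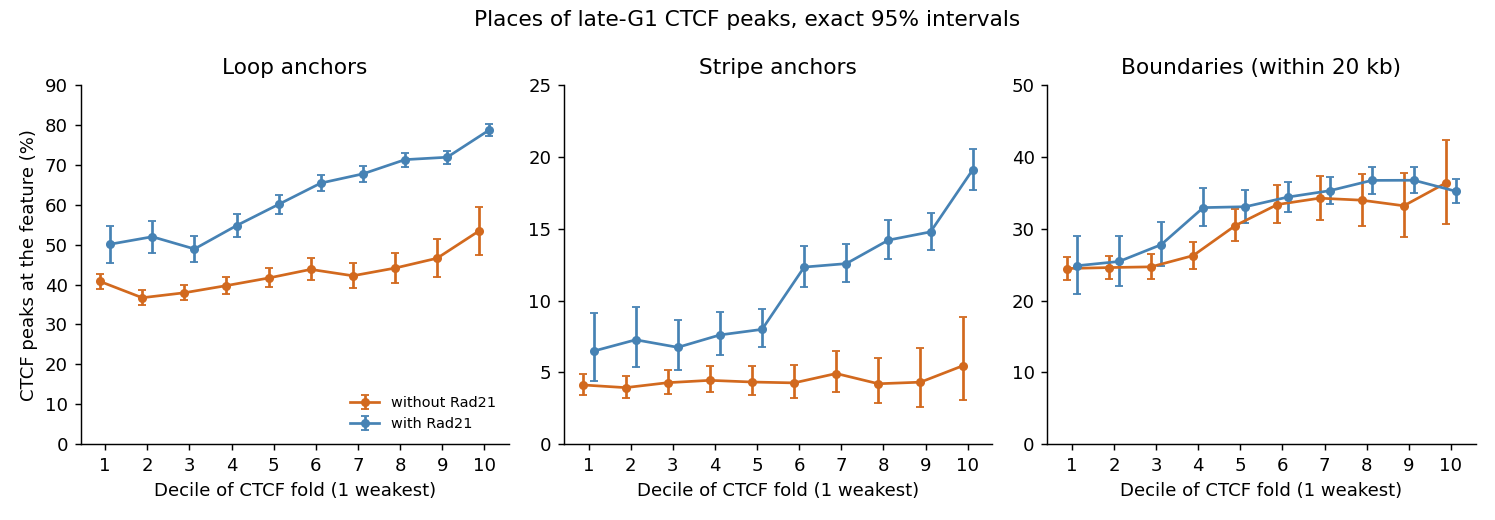
Share of late-G1 CTCF peaks (%) at loop anchors, at stripe anchors and within 20 kb of a domain boundary, by decile of CTCF fold enrichment, for peaks without Rad21 and with Rad21, with exact 95% intervals. At stripes the line without Rad21 stays between 3.94% and 5.45%, while the line with Rad21 climbs to 19.1%; at boundaries the lines run together.

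Among co-bound pairs, Rad21 fold ordered the pairs at stripes and loops more steeply than CTCF fold did. Over quintiles by Rad21 fold, weakest to strongest, 5.69%, 6.61%, 9.72%, 14.6% and 27.7% lay at a stripe anchor. Over quintiles by CTCF fold the shares were 7.33%, 10.6%, 13.2%, 14.8% and 18.4%. For loop anchors the shares were 55.6%, 57.7%, 63.7%, 73.8% and 84.2% by Rad21, and 52.7%, 63.6%, 69.1%, 71.6% and 78.0% by CTCF. With both ranked at once, the strongest quintile of CTCF held stripe anchors at 4.64%, 6.60%, 6.74%, 14.0% and 29.4% over the Rad21 quintiles. The strongest quintile of Rad21 held them at 8.57%, 29.4%, 25.9%, 26.4% and 29.4% over the CTCF quintiles, where the first value rests on 35 pairs. From the second CTCF quintile upwards, the stripe share of the pairs with strongest Rad21 stayed between 25.9% and 29.4%. Boundaries were ordered weakly by both: 27.8% in the weakest and 38.7% in the strongest Rad21 quintile, 29.5% and 35.3% for CTCF.

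**Figure D5:**
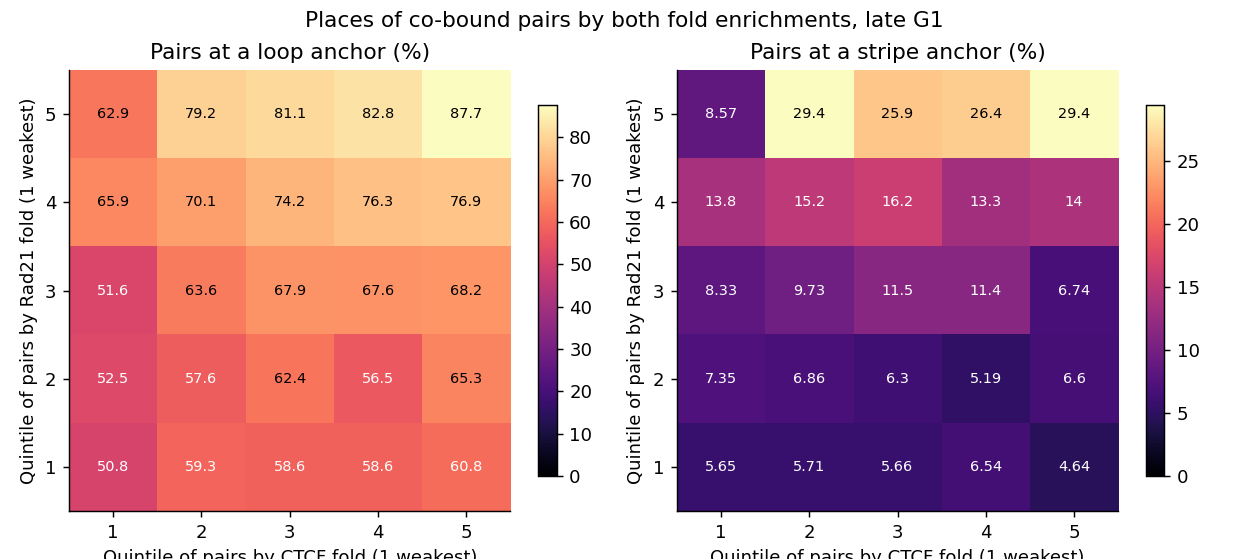
Share of co-bound pairs (%) at a loop anchor (left) and at a stripe anchor (right) for each combination of the quintile by CTCF fold enrichment (across) and by Rad21 fold enrichment (upwards). Stripe shares grow upwards along the Rad21 axis, 4.64% to 29.4% in the strongest CTCF column. Along the CTCF axis the weakest Rad21 row stays between 4.64% and 6.54%. The strongest Rad21 row has 8.57% in its first cell, of 35 pairs, and 25.9% to 29.4% in the others.

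Seen from the contact maps, both proteins at both anchors was the most common class of loop. CTCF without Rad21 was the best that both anchors offered in 127 of 11340 loops, 1.12% (0.934 to 1.33%). Co-bound CTCF stood at both anchors of 5790 loops, 51.1% (50.1 to 52.0%). Another 1217 loops had a co-bound peak at 1 anchor and CTCF without Rad21 at the other. One anchor had no CTCF in 603 loops with CTCF alone and 2428 with co-bound CTCF at the other, and 1175 loops had CTCF at neither. The ratio of the deposited observed over expected contact had a median of 2.70 (2.54 to 2.91) at loops with CTCF alone at both anchors, 3.10 (3.00 to 3.18) at the mixed loops and 3.97 (3.90 to 4.03) at loops with co-bound anchors. Loops with no CTCF at either anchor had 2.78 (2.72 to 2.83), so the loops with CTCF alone could not be told from these by their intervals.

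Loop size moves with these classes, since the median distance was 140 kb for CTCF alone and 180 kb for co-bound anchors. Compared at like size, CTCF alone had a lower median ratio than co-bound anchors in each range. CTCF fold was not matched here, and CTCF peaks without Rad21 were the weaker ones, so the part of CTCF strength was not tested. Under 100 kb the median ratio was 2.29 (n = 39) for CTCF alone and 2.68 (n = 996) for co-bound anchors. From 100 to 200 kb it was 2.61 (n = 48) and 3.69 (n = 2181), and from 200 to 400 kb it was 3.21 (n = 33) and 4.57 (n = 1867). In each of these 3 ranges the intervals of the medians lay apart. Above 400 kb only 7 loops had CTCF alone, with a median of 3.78, against 6.00 for 746 co-bound loops, and the intervals overlapped. A stripe has 1 anchor, so its shares are not set against those of loops. The stripe anchors held CTCF without Rad21 in 66 of 1745, 3.78% (2.94 to 4.79%), a co-bound peak in 84.1%, and no CTCF in 12.1%. The deposited stripe strength, also a ratio of observed over expected, had medians of 2.93 (2.72 to 3.08) at CTCF alone and 2.83 (2.80 to 2.86) at co-bound anchors, with intervals that overlapped.

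The strongest decile of CTCF peaks held 275 without Rad21 beside 3074 with it, and these were alike in CTCF signal. The medians were 40.1-fold without and 40.6-fold with Rad21, and the widths 379 and 381 bp. The peaks without Rad21 varied widely in their distance from it, and no expected distance was computed. The nearest Rad21 peak was a median of 13.3 kb away, with quartiles of 4.41 and 30.1 kb. It lay within 1 kb for 10 of the 275, between 1 and 10 kb for 110, between 10 and 50 kb for 120 and farther for 35. They had more CTCF neighbours than the co-bound peaks: 68.7% (62.9 to 74.2%) had another CTCF summit within 10 kb, against 57.7% (55.9 to 59.4%) of those with Rad21. Within 1 kb the shares were 6.91% and 7.09%.

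CTCF itself was called across the stages at these 275 sites about as often as at the co-bound ones. It was called at 275 of 275 in each list from ana/telophase on and in asynchronous cells, and at 90.9% in pro-metaphase, against 88.0% of the strong peaks with Rad21. Rad21 was called at 0 of them in pro-metaphase, at 15, 1 and 19 in the ana/telophase, early-G1 and mid-G1 lists, and at 15 in asynchronous cells. The count of 0 allows a share of up to 1.09% with 3 counts as the limit, and the exact 95% interval ends at 1.33%. Of the strong peaks with late-G1 Rad21, 6.93%, 67.9%, 71.8% and 91.0% had it at these 4 stages in order, and 86.0% in asynchronous cells. Of the 275, 234 (85.1%) had Rad21 in none of the 6 lists. The late-G1 list lacks them by selection, and each of the other Rad21 lists is shorter, which limits what this count shows.

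At loop anchors the strong peaks without Rad21 numbered 147, 53.5% (47.4 to 59.5%), against 78.7% (77.2 to 80.2%) of those with Rad21. At stripe anchors they numbered 15, 5.45% (3.08 to 8.84%), against 19.1% (17.7 to 20.5%). Near boundaries they numbered 100, 36.4% (30.7 to 42.4%), against 35.2% (33.5 to 36.9%). The intervals lay apart for loops and stripes and overlapped for boundaries. They took part in a mean of 0.865 loops each, against 1.59, and 7.27% stood at 3 or more loops, against 21.9%. At none of the 3 features stood 26.5%, against 10.9%.

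Most of these 147 peaks shared their anchors with a co-bound peak. For 103 of the 147 every anchor contained another CTCF peak with Rad21, and 44 had at least 1 loop anchor without any. Counting only anchors with no other co-bound CTCF peak, the loop share was 16.0% without Rad21 and 40.2% with it. For stripes it was 0 of 275, with the same limits of 1.09% and 1.33%, against 7.64%. All 15 strong peaks without Rad21 at a stripe anchor thus shared that anchor with a co-bound peak.

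The 5 strongest CTCF peaks without Rad21 lay at chr14:52898938-52899307 (61.9-fold), chr17:56175965-56176461 (61.6-fold), chr12:70461631-70461966 (60.5-fold), chr2:119372633-119373075 (59.9-fold) and chr7:52689638-52690469 (59.0-fold). Each was in all 5 other CTCF lists. The first had Rad21 in mid G1 only, and the other four had it in no list. Their nearest late-G1 Rad21 peaks were 58.9, 5.23, 214, 4.42 and 2.93 kb away, so they were isolated sites and close neighbours of cohesin alike. They anchored 1, 0, 1, 2 and 2 loops, and none was at a stripe anchor.

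Of the 275, 7 were at a loop anchor, a stripe anchor and a boundary at once. The strongest of these was at chr1:184054586-184054975, with 53.4-fold enrichment, 3 loops and a Rad21 peak 8.43 kb away. The next were at chr2:26495694-26496044 (51.4-fold, Rad21 at 6.39 kb) and chr19:44636984-44637382 (46.3-fold, Rad21 at 17.5 kb). At the other end were sites in long stretches with no Rad21. At chr9:12692368-12692727 the nearest Rad21 peak was 765 kb away, at chr5:14253363-14253744 it was 622 kb and at chr3:65184101-65184439 it was 483 kb. These 3 peaks, of 36.8-fold, 37.5-fold and 37.1-fold, had no Rad21 in any list and no loop, and the second lay 3.53 kb from a boundary.

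Set beside the other stages, the share of CTCF peaks with Rad21 was highest in late G1 among the 6 pairs of lists, without a replicate test, while the share of Rad21 peaks with CTCF was not. Pro-metaphase cells had Rad21 at 3.15% of CTCF peaks, ana/telophase cells at 21.0%, early-G1 cells at 25.3%, mid-G1 cells at 42.0%, late-G1 cells at 53.7% and asynchronous cells at 39.4%. In the strongest decile of CTCF peaks of each stage it was 4.66%, 61.8%, 62.3%, 81.0%, 91.8% and 76.3% in the same order. The rank correlation of paired folds was 0.049, 0.37, 0.39, 0.42, 0.49 and 0.40. These lists had 596, 7995, 8694, 15762, 18958 and 13625 Rad21 peaks, and all 3 measures had the same rank order as these lengths; the part of list length and depth was not tested. Seen from Rad21, CTCF was at 62.4%, 87.3%, 98.5%, 96.2%, 95.0% and 96.3% of its peaks over these stages, highest in early G1. The pro-metaphase Rad21 list reached down to a −log10 q of 0.047, against 1.18 or more in the others, so it includes calls with little support. The outward shift, taken at late-G1 anchors, was above 0 at every stage. In the same order it was 17 bp (10 to 22 bp, n = 269), 14, 21, 22, 21 and 24 bp. Median summit distances over the same stages were 33, 20, 24, 26, 26 and 27 bp.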

How the data were processed

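CTCF and Rad21 ChIP-seq and in situ Hi-C had been done on sorted late-G1 cells. For ChIP-seq the submitters' processing notes name MACS2 2.1.0, bedtools 2.27.1, SAMtools 1.7 and Bowtie 0.12.7, for Hi-C they name HiC-Pro and Bowtie2, and the build is mm9. What called loops, stripes and domains, and how the authors normalized contacts, is not stated in the sources. The authors merged and downsampled the replicates of a deposited list before peak calling, as the peak names in the lists say. Each peak has a deposited fold enrichment (a ratio), −log10 p and −log10 q. The smallest deposited −log10 p was 4.05 for Rad21 and 8.17 for CTCF. Loops have a deposited p-value beside the observed and expected contact signal, and stripes a strength ratio, per the file headers. Read depth is unknown.

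Overlaps of at least 1 bp, summit distances and shares were computed in Python 3.11.15 with SciPy 1.17.1, pandas 2.3.3 and NumPy 2.4.6, and drawn in Matplotlib 3.10.9. Where a CTCF peak met 2 Rad21 peaks, the pair with the longer overlap was kept. Contact ratios of loops were formed from the deposited observed and expected values. The interval functions passed 9 of 9 tests on simulated data, with 3000 intervals set against 2000, beside bedtools 2.31.1. Peaks were ranked by fold into 10 deciles of the CTCF list, and pairs into 5 quintiles. Shares were given exact 95% binomial intervals; intervals of medians came from order statistics. Pooled lists allow no test over replicates, so no p-value is given. The comparison, the lists and the rule for named regions (the highest, the most unequal or the most isolated peaks of a class) were chosen with earlier results of these data known. Genes, motifs and sequences were not used here, because the tables at hand are for another build. Alternatives were other overlaps, thresholds, distances, anchor widths and lists.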

Additional observations from a re-analysis of the deposited data

How the results depend on the processing

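Of 72 alternatives computed, 50 stayed within the interval or spread of the value reported and 22 moved. Asking for an overlap of 50% of both peaks gave 51.7% of CTCF peaks with Rad21, 91.3% of Rad21 peaks with CTCF, a rank correlation of 0.53 and 86.2% of the strongest decile with Rad21. Summits within 100 bp gave 94.2% of Rad21 peaks with CTCF. A −log10 q of at least 5 gave 52.3% and 96.0% for the CTCF and the Rad21 share, and a fold of at least 5 gave 48.2%, 97.2% and, in the strongest decile, 89.6%. Asynchronous Rad21 peaks overlapped 39.8% of late-G1 CTCF peaks, and asynchronous CTCF peaks 91.1% of late-G1 Rad21 peaks. For strong peaks, widening anchors by 10 kb gave 67.3% without Rad21 and 84.3% with it at loops, and 9.82% and 23.9% at stripes. Anchors with no other co-bound CTCF peak gave 16.0% without and 40.2% with Rad21 at loops, and 0% and 7.64% at stripes. Boundary shares were 25.5% without and 21.6% with Rad21 within 10 kb, 51.3% and 49.1% within 40 kb, and 23.6% and 20.9% for domains in no larger domain. Pairs alone in their anchor gave an outward shift of 23 bp. The stripe share of the highest Rad21 quintile was 32.6% with widened anchors and 29.2% when ranked by −log10 q. The cause of these moves was not tested. The loop and stripe shares of strong peaks were lower without Rad21 in 20 of 20 alternatives, and the boundary share, which was higher without Rad21, turned lower in 2 of 10. Those 2 were a fold of at least 5 (34.4% without and 35.5% with Rad21) and the top quartile in place of the top decile (34.6% and 35.9%). Among the 20, stripes of at least 100 kb gave the main shares again, 5.45% and 19.1%, so that setting adds nothing to the counts. The −log10 q threshold removed Rad21 peaks only, because the lowest CTCF value was 5.75. The alternatives for anchors with no other co-bound peak, for the shift, for the stripe share by Rad21 and without chromosome X were chosen after seeing the data.

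No paired analysis was possible because each list pools its replicates, and for the same reason no replicate was left out. Depth is unknown, which limits what a missing Rad21 call shows.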

Other observations

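Chromosome X stood apart from the autosomes in CTCF strength. Its 900 CTCF peaks had a median fold of 14.9, against 17.1 to 19.0 on the other chromosomes, and 7 of them, 0.778%, were in the strongest decile. Rad21 was called at 50.7% of them (47.3 to 54.0%), inside the range of 48.2% to 60.1% on the other chromosomes. Loop anchors held 28.7% of its CTCF peaks, against 47.5% to 61.7% elsewhere.

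Rad21 peaks without CTCF were weak, with a median fold of 4.82 for 941 peaks, against 9.20 for 18017 with CTCF. At a loop anchor were 49.0% (45.8 to 52.2%) of them, against 67.0% (66.3 to 67.7%) of those with CTCF. The exception in strength was chr8:108204559-108206475, a Rad21 peak of 1917 bp and 45.6-fold that was in all 5 other Rad21 lists, with CTCF there in 1 other list. The next were 12.1-fold at chr10:110943458-110944141, an anchor of 5 loops and of a stripe, and 11.0-fold at chr12:9029868-9030175, at no loop.

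The 3 loops with the highest ratio of observed over expected contact among those with CTCF and no Rad21 at both anchors lay on chromosomes X and 11. On chromosome X, from 166220001 to 166420000, the ratio was 7.95, with the nearest Rad21 peak 482 kb from the upstream anchor. On chromosome 11, from 113520001 to 114540000 and from 45830001 to 46050000, it was 6.76 and 6.01. In the last, Rad21 peaks lay 0.095 kb from the upstream and 0.823 kb from the downstream anchor, so they missed the anchors narrowly.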
